A study of Mus musculus with 12 samples.

Results

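The genes described here are 10 members of the matrix metalloproteinase (Mmp) and tissue inhibitor of metalloproteinase (Timp) families, namely Mmp2, Mmp3, Mmp9, Mmp10, Mmp12, Mmp13, Mmp14, Mmp19, Timp1 and Timp4. They are 8 of the 23 Mmp symbols and 2 of the 4 Timp symbols among the 24062 gene symbols counted, in mouse tumor-bearing livers and mouse liver cancer xenografts. The list of 10 was selected on results from these same libraries, so the levels and differences of its genes are given as a description with no p-value. Tests are given for other genes of the pathway.

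Matrix metalloproteinases are zinc-dependent proteases that are mostly secreted, or tethered to the cell surface, as inactive precursors and cut collagens, elastin, laminins and other matrix proteins once their propeptide is removed. The Timp proteins bind the active site of these enzymes and block it. In liver the balance of both families is known for its role in fibrosis, repair and tumor invasion, and much of it is made by stellate cells, macrophages and tumor cells rather than by hepatocytes.

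The livers came from male FVB mice carrying LAP-tTA and TRE-MYC, in which a liver-active promoter drives the tetracycline transactivator and the transactivator drives a MYC transgene once doxycycline is withdrawn at birth (MYC-ON livers). The tumors were HCC53N, a mouse line from liver tumors in which Alb-Cre had removed p53 and mutant NRAS was expressed, injected below the skin into females of the NOD SCID strain, which lacks mature T and B cells (NOD-SKID in the labels, which also call the cells FVB MYC ON). For 21 days the mice of each model ate either a complete control diet or the same diet without tryptophan (No-Trp). Each of the 4 groups holds 3 mice and 1 library per mouse. All xenografts are of a single cell line, and since line and host are both mouse, reads from tumor cells and from host stroma cannot be told apart. In such bulk samples fewer cells of a type and less RNA per cell also cannot be told apart.

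The libraries held between 14660963 and 26085349 reads on genes. The hepatocyte markers, 8 genes such as Alb, summed to 15390 to 137600 CPM (reads per 1e+06 reads on genes, scaled for composition over all 12 libraries) in the livers. In the xenografts they summed to 1192 to 3418 CPM, so their sum was lower there. The 8 log2 fold changes between xenografts and livers on the control diet ran from −1.49 for Hnf4a to −5.84 for Cps1. In control xenografts Hnf4a was still at 150.8 to 256.5 CPM and Trf at 473.5 to 1170 CPM. The 6 cholangiocyte markers, mostly Spp1, summed to 2944 to 10800 CPM in the xenografts and to 87.1 to 168.1 CPM in the livers. Trp53 was at 17.5 to 22.8 CPM in the xenografts and at 46.7 to 133 CPM in the livers. In control liver 101 the ribosomal RNA gene Rn45s took 12.1% of the counts, against at most 2.22% elsewhere. Livers 101 and 108 and control xenografts 41 and 43 are marked as resubmitted, without a stated reason, and this mark was tried as a covariate.

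Between the diets, 2 of the 10 genes passed the thresholds, both in the xenografts, and neither call was stable when single libraries were left out. Mmp10, stromelysin 2, was lower in No-Trp xenografts than in control xenografts, and Timp4 was higher. In the MYC-ON livers none of the genes tested passed the thresholds in either direction. The difference between the models was larger than that between the diets for most of the list, with 8 of the 10 genes called higher in xenografts than in livers on each diet. To be called, a gene needed an adjusted p no higher than 0.05 and an absolute log2 fold change no lower than 1, and the calls of the 10 genes are set beside the share of all tested genes that were called.

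Mmp10 cleaves proteoglycans, laminin and fibronectin and activates other metalloproteinases. It was at 17.1, 42.9 and 35.8 CPM in control xenografts 40, 41 and 43. In No-Trp xenografts 35, 36 and 37 it was at 4.82, 3.001 and 6.40 CPM. All 3 No-Trp xenografts therefore lay below all 3 controls, and the lowest control, xenograft 40, is the one without the mark of resubmission. The log2 fold change was −2.76 ± 0.41 (SE, n = 3 against 3). In the livers Mmp10 stayed near the lower end of detection, at 1.59, 0.62 and 0.719 CPM in controls 101, 102 and 103 and at 1.37, 0.369 and 1.48 CPM in No-Trp livers 105, 107 and 108. These liver groups overlapped, and their log2 fold change was 0.14 ± 0.62. Among the keratinocyte markers, whose sum overlapped between the diets, 1 of those tested in the xenografts had groups that did not overlap. This was Krt10, a keratin of differentiating skin cells, at 9.31 to 13.0 CPM in control xenografts and 4.54 to 6.64 CPM in No-Trp xenografts. Of the estimates of the 5 tested markers, 4 were below 0 and 1 was above. Of the 5 keratinocyte markers tested in the xenografts 0 were called by edgeR, 1 had an unadjusted p under 0.05 and DESeq2 called 0, and their part in the Mmp10 difference was not tested.

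Timp4, an inhibitor known for its expression in heart and adipose tissue, held at most 20 reads in 9 of the 12 libraries. The control xenografts 40, 41 and 43 held 0, 5 and 0 reads of it. The No-Trp xenografts 35, 36 and 37 held 141, 71 and 137 reads, which is 5.11, 2.37 and 5.81 CPM. The control livers held 20, 0 and 2 reads, with the 20 in liver 101, and the No-Trp livers 0, 1 and 0. Reads summed over the xenografts of each diet, 5 against 349, gave a ratio of 53.2 (95% counting interval 22.6 to 165, which covers counting error only). The log2 fold change of the fit was 5.74 ± 0.92, and Timp4 passed the filter on low counts only through the No-Trp xenografts, so that it had to differ. In the livers, where it was not tested, 22 reads in controls and 1 in No-Trp livers gave a ratio of 0.0619 (95% counting interval 0.0015 to 0.383), which rests on liver 101.

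The higher level of Timp4 in the No-Trp xenografts came beside higher levels of fat cell markers. The summed level of 6 adipocyte markers was 11.6, 67.7 and 15.0 CPM in control xenografts 40, 41 and 43 and 476.8, 373.7 and 783.7 CPM in No-Trp xenografts 35, 36 and 37. All 6 markers were higher in every No-Trp xenograft than in any control, and 3 of them passed the test: Adipoq, the adipokine adiponectin (log2 fold change 4.70 ± 0.55, edgeR adjusted p = 0.0299), Plin1, the lipid droplet coat protein perilipin (5.48 ± 0.50, adjusted p = 0.00956) and Retn, the adipokine resistin (6.27 ± 0.62, adjusted p = 0.0137). Leaving out each xenograft in turn, Plin1 and Retn remained called in 6 of 6 fits and Adipoq in 3. None of the 6 markers was at 0 in a whole group. In the livers the same sum was 30.9 to 41.9 CPM on the control diet and 14.7 to 20.8 CPM without tryptophan. Skeletal muscle markers moved the same way in the xenografts, from 1.81 to 19.4 CPM on the control diet to 31.6 to 63.1 CPM, with 0 of 6 called by edgeR, 5 of 6 at an unadjusted p under 0.05 and 1 called by DESeq2. The part of fat or muscle in the Timp4 difference was not tested.

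**Figure D1:**
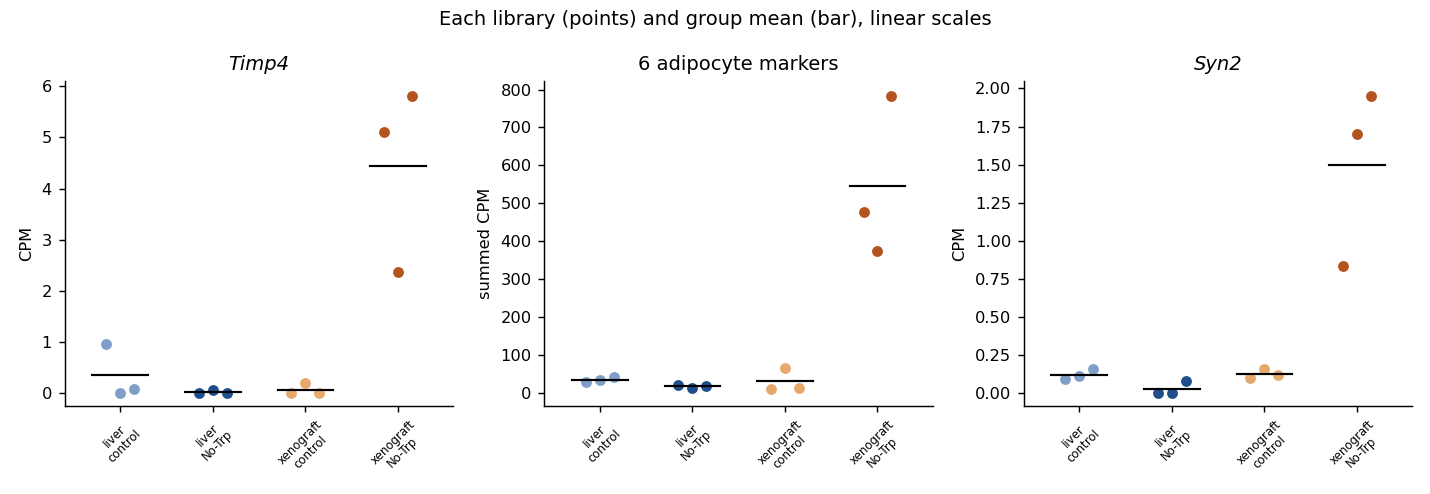
Timp4 (left, CPM), the sum of 6 adipocyte markers (middle, summed CPM) and Syn2, the gene on the other strand around Timp4 (right, CPM), in each library by group; points are mice, bars are means of 3. All 3 measures are highest in the No-Trp xenografts, where Timp4 reached 2.37 to 5.81 CPM, the markers 373.7 to 783.7 CPM and Syn2 0.834 to 1.95 CPM.

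Timp4 lies at chr6:115241892-115252205 on the minus strand (GRCm38, GENCODE M21) inside Syn2, which runs on the other strand and shares 90 exonic bases with it. Syn2, a synapsin of synaptic vesicles, held 2, 4 and 2 reads in control xenografts 40, 41 and 43 and 23, 51 and 46 reads in No-Trp xenografts 35, 36 and 37. Without the strand setting of the counting, reads of the 2 genes over the shared bases cannot be told apart. The 141 reads of Timp4 in xenograft 35 stand beside 23 of Syn2, and the 71 in xenograft 36 beside 51.

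Of the 10 genes, 4 lie side by side within 237.7 kb of chromosome 9, in the order Mmp13 (chr9:7272514-7283331), Mmp12 (chr9:7344381-7369499), Mmp3 (chr9:7445822-7455975) and Mmp10 (chr9:7502352-7510240), all on the plus strand, with Mmp1b and Mmp1a between them. Mmp13, a collagenase that cuts fibrillar collagen and aggrecan, was at 111.6, 97.1 and 402.7 CPM in control xenografts 40, 41 and 43 and at 33.9, 38.2 and 100.9 CPM in No-Trp xenografts 35, 36 and 37. The groups overlapped by a narrow margin, and the log2 fold change was −1.83 ± 0.69. It was −0.86 without control 43, the highest library.

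Mmp12, the elastase of macrophages, was at 39.0, 54.6 and 52.3 CPM in the control xenografts and at 26.4, 13.3 and 37.9 CPM without tryptophan. The groups did not overlap, but the log2 fold change of −0.92 ± 0.36 did not pass the thresholds. The macrophage and Kupffer cell markers, 10 genes, summed to 397.7 to 535.3 CPM in control xenografts and to 362.8 to 565.6 CPM without tryptophan, so the sums of the groups overlapped. So did those of 10 stellate cell and fibroblast markers (263.8 to 604.3 and 297.1 to 717.6 CPM) and of 6 keratinocyte markers, mostly Krt5 and Krt14 (32.9 to 189.4 and 41.7 to 66.2 CPM), while 8 endothelial markers summed to 55.1 to 136.1 CPM on the control diet and to 138.4 to 224.4 CPM without tryptophan, with 0 of 8 called by edgeR, 1 at an unadjusted p under 0.05 and 1 called by DESeq2. The 9 neutrophil markers summed to 14.9 to 18.5 CPM in control xenografts and to 28.5 to 48.6 CPM in No-Trp xenografts, with no overlap. Of the 6 that were tested, 0 were called by edgeR, 4 had an unadjusted p under 0.05 and DESeq2 called 0. The part of neutrophils and endothelial cells in the xenograft values was not tested.

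Mmp3, stromelysin 1, was at 6.13, 11.7 and 76.1 CPM in control xenografts 40, 41 and 43 and at 76.6, 62.0 and 44.7 CPM in No-Trp xenografts 35, 36 and 37. Its 2 lowest controls lay below every No-Trp library and the remaining control, 43, above 2 of them. The log2 fold change of 0.95 ± 0.86 thus hung on a single library and was 2.76 without control 43. Of the 4 neighbours, Mmp3 was the only one whose estimate in the xenografts was above 0.

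Over the 12 libraries, with each model centred at its own mean, the log2 level of Mmp10 went with that of Mmp13 (Pearson r = 0.751) and of Mmp12 (r = 0.634), and Mmp3 went against Mmp10 (r = −0.395). These are descriptions over libraries that share groups of 3, models and diets, with no test. Mmp1a and Mmp1b, whose protein resembles collagenase 1, held at most 8 reads summed over any group. Mmp12 shares 157 exonic bases with Mmp1b, which lies on the other strand.

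For this cluster the 100 bases before 4 RefSeq start sites (GRCm38.p6, plus strand) are printed, those whose windows held both of 2 motifs. Capitals mark the letters TGANTCA, which AP-1 factors such as Fos and Jun are known to bind, and TATAAA, known from core promoters. In Mmp12 the TATAAA letters lie past the start and so outside the printed bases. The stretches cover chr9:7272414-7272513 for Mmp13, chr9:7347274-7347373 for the second start of Mmp12, chr9:7445722-7445821 for Mmp3 and chr9:7502242-7502341 for Mmp10.
Mmp13: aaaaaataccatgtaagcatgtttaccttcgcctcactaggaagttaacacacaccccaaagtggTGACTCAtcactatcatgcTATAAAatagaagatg
Mmp12: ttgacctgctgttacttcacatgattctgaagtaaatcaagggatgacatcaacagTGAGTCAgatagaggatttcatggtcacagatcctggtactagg
Mmp3: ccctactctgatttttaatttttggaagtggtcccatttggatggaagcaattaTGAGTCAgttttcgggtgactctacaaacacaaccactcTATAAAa
Mmp10: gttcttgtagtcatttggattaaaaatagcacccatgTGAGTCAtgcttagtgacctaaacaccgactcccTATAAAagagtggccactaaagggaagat

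The AP-1 letters began 35 bases before the start of Mmp13, 44 before the second start of Mmp12, 46 before Mmp3 and 63 before Mmp10. They were searched on both strands in windows of 300 bases around 32851 RefSeq start sites, of which 7.81% held them, while 13.62% held TATAAA. In none of the 4 stretches did the motifs overlap. Windows were found for 7 of the 10 genes, and not for Mmp2, Mmp9 and Mmp19. The first start of Mmp12 and the windows of Mmp14, Timp1 and Timp4 held neither motif. A match of letters is a description of the sequence and not a binding site.

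**Figure D2:**
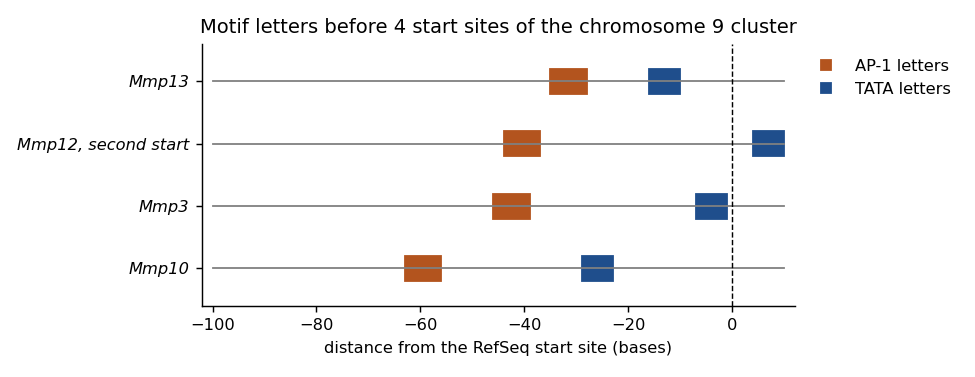
Positions of the AP-1 letters (orange) and TATA letters (blue) before 4 start sites of the chromosome 9 cluster, by distance in bases from the RefSeq start site at 0. The AP-1 letters begin 35 to 63 bases before each start, and the TATA letters of the second start of Mmp12 lie 4 bases past it.

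The gelatinases Mmp2 and Mmp9, which cut denatured collagen and basement membrane collagen, differed little between the diets in either model. Mmp2 was at 44.7, 124.5 and 79.2 CPM in control xenografts and at 134.9, 60.0 and 111.1 CPM in No-Trp xenografts (log2 fold change 0.29 ± 0.42). Mmp9 was at 33.3, 36.9 and 73.2 CPM and at 40.5, 92.6 and 54.6 CPM (0.38 ± 0.40). Both genes had overlapping groups. Mmp14, the membrane-bound protease that activates the precursor of Mmp2, was at 202.6, 301.7 and 295.9 CPM and at 306.9, 221.8 and 204.4 CPM (−0.14 ± 0.21), also overlapping. Mmp19, a soluble protease of basement membrane proteins, ranged from 27.4 to 36.4 CPM in control xenografts and from 16.2 to 54.3 CPM without tryptophan (0.08 ± 0.39), and its groups overlapped. It shares 789 exonic bases with Tmem198b on the other strand, whose level in the xenografts was 17.9 to 31.1 CPM, so counts of Mmp19 are uncertain.

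Timp1, the inducible inhibitor of most secreted metalloproteinases, was at 134.0, 199.1 and 140.6 CPM in control xenografts 40, 41 and 43 and at 152.8, 113.0 and 73.8 CPM in No-Trp xenografts 35, 36 and 37. The groups overlapped through xenograft 35, and the log2 fold change was −0.50 ± 0.27. It lies at chrX:20870166-20874735 inside Syn1, with no exonic base in common.

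In the xenografts 1 of the 10 genes was called higher and 1 lower, where 0.245% and 0.116% of the 14704 genes tested were called. The groups of 3 of the 10 genes, Mmp10, Mmp12 and Timp4, did not overlap, against 22.5% of all genes. Since these values chose the list, nothing is read from the counts. Their median log2 fold change was −0.03, and that of all genes −0.004. The 2 calls were not stable: leaving out a library in turn, Mmp10 remained called only without control 40 and Timp4 in none of the 6 fits, while their log2 fold changes ran from −3.07 to −2.49 and from 5.20 to 9.71. With the mark of resubmission as a covariate, which leaves control 40 as the only unmarked control, the estimates were −1.86 and 9.72, and neither was called.

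In the MYC-ON livers 9 of the 10 genes were tested and 0 were called in either direction, where 9.28% of the 14122 genes tested were called higher and 7.27% lower. DESeq2 also called 0, and 1 had an unadjusted edgeR p under 0.05. The groups of 0 of the 9 genes were apart, while 48.6% of all genes had groups that did not overlap. The 9 estimates ran from 0.02 to 0.67 with a median of 0.14, against −0.003 over all genes. Scaling by library totals moved the median of all genes to −0.30 and left 2 of the estimates, those of Mmp2 and Mmp14, above 0.

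The largest of these estimates was that of Mmp14, at 52.7, 59.7 and 63.8 CPM in control livers 101, 102 and 103 and at 109.6, 109.5 and 58.7 CPM in No-Trp livers 105, 107 and 108 (0.67 ± 0.26). Livers 105 and 107 lay above all controls, and liver 108 among them. Mmp2 was next, at 24.8, 17.0 and 16.2 CPM and at 22.5, 24.8 and 31.1 CPM (0.45 ± 0.23), and control liver 101 lay within the range of the No-Trp livers. Mmp19 was at 26.1, 46.6 and 40.9 CPM and at 47.1, 47.5 and 43.6 CPM (0.30 ± 0.23). Its No-Trp livers lay closer together than its controls, and the lowest control was liver 101.

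Mmp12 was at 7.24, 11.1 and 18.1 CPM in the control livers and at 19.7, 12.5 and 9.87 CPM in the No-Trp livers (0.22 ± 0.40). Mmp13 was at 13.0, 9.35 and 6.07 CPM and at 7.72, 8.42 and 13.5 CPM (0.08 ± 0.36). Both had overlapping groups. Mmp3 was at 4.10, 0.958 and 1.48 CPM and at 2.40, 3.26 and 1.09 CPM (0.07 ± 0.63). Mmp9 was at 3.04, 2.93 and 4.55 CPM and at 3.43, 2.03 and 5.21 CPM (0.02 ± 0.41). Timp1 was at 5.74, 3.10 and 6.07 CPM and at 4.92, 5.66 and 4.82 CPM (0.06 ± 0.33). For these the SE was larger than the estimate. In the same livers the 8 hepatocyte markers summed to 15390 to 50420 CPM on the control diet and to 54960 to 137600 CPM without tryptophan, and 9 neutrophil markers to 169.6 to 249.1 CPM and 11.5 to 118.8 CPM, while the 10 macrophage markers overlapped (467.8 to 676.7 CPM and 403.1 to 865.1 CPM).

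**Figure D3:**
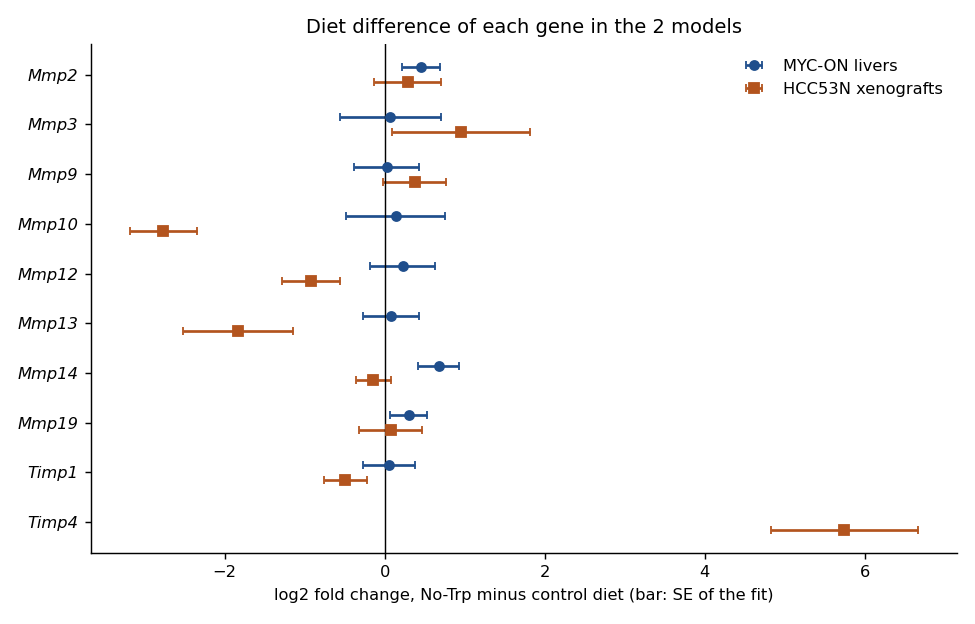
Log2 fold change of each gene between the No-Trp and control diets (x axis, No-Trp minus control) in MYC-ON livers (blue circles) and HCC53N xenografts (orange squares); bars are the SE of the fit, n = 3 against 3, and Timp4 was not tested in the livers. The liver estimates lie between 0.02 and 0.67, and those of Mmp10 (−2.76) and Timp4 (5.74) in the xenografts lie farthest from 0.

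The question whether the diet difference itself differed between the models was addressed with the interaction term over all 12 libraries. Mmp10 was called lower (−2.87 ± 0.76) and Timp4 higher (9.45 ± 2.05), which is 1 of 10 genes in each direction, where 6.70% of 15472 genes were called higher and 6.01% lower. These values are among those that chose the list, and Timp4 was tested only because of its reads in the No-Trp xenografts, so they are a description and nothing is read from the counts. The estimate for Timp4 was 6.66 and not called without liver 101, the library with 20 of its 22 reads in control livers. Mmp10 was called in 5 of the 12 fits that left out a library, with estimates from −3.41 to −2.60.

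Most of the 10 genes were higher in the xenografts than in the livers. On the control diet 8 of the 10 were called higher and 0 lower, where 23.3% of all genes were called higher and 20.2% lower, and the groups of 8 of the 10 did not overlap, against 65.1% of all genes. Without tryptophan 8 of the 10 were again called higher and 0 lower, where 24.5% and 19.1% of all genes were called, with 8 of 10 not overlapping against 66.9%. Timp4 is among these 8, and it passed the filter on low counts only through the No-Trp xenografts, so that it had to differ. The median log2 fold change of the 10 was 2.97 on the control diet and 2.35 without tryptophan, against 0.01 and 0.15 over all genes. Of the Mmp and Timp symbols outside the list 11 were tested. On the control diet 4 of these were called higher and 3 lower (median −0.305), and without tryptophan 5 higher and 1 lower (median 0.216). The higher levels are thus described for the 10 selected genes and not for the families. Tissue, site, strain, sex, host and tumor type differ together between the models and cannot be told apart. These comparisons share their libraries with the diet comparisons.

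On the control diet the largest log2 fold changes were those of Mmp10 (5.02 ± 0.58) and Timp1 (4.98 ± 0.33), and on the No-Trp diet those of Timp4 (7.34 ± 1.52), Mmp3 (4.74 ± 0.94) and Timp1 (4.46 ± 0.33). That of Timp4 rests on 1 read in the No-Trp livers against 349 in the No-Trp xenografts (ratio 201, 95% counting interval 35.8 to 7940). Timp1, at 3.10 to 6.07 CPM over the 6 livers, was at 73.8 to 199.1 CPM over the 6 xenografts. Mmp13 had values of 4.43 ± 0.66 on the control diet and 2.55 ± 0.61 without tryptophan, Mmp9 of 3.76 ± 0.45 and 4.15 ± 0.46, and Mmp3 of 3.83 ± 0.90 on the control diet. Mmp2 and Mmp14 had smaller ones, of 2.10 ± 0.38 and 2.18 ± 0.26 on the control diet and of 1.97 ± 0.37 and 1.40 ± 0.26 without tryptophan.

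Mmp12 was called on the control diet (2.00 ± 0.42) and not on the No-Trp diet (0.88 ± 0.41), and the interaction of −1.12 was not called. Mmp10 had a log2 fold change of 2.15 ± 0.54 on the No-Trp diet. Mmp19 was the only one of the 10 with estimates below 0 on both diets (−0.29 ± 0.35 and −0.48 ± 0.35), neither of them called, and library totals moved the second value to 0.08. Timp4 on the control diet, 22 liver reads against 5 xenograft reads, gave a ratio of 0.233 (95% counting interval 0.069 to 0.631) and was not called.

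**Figure D4:**
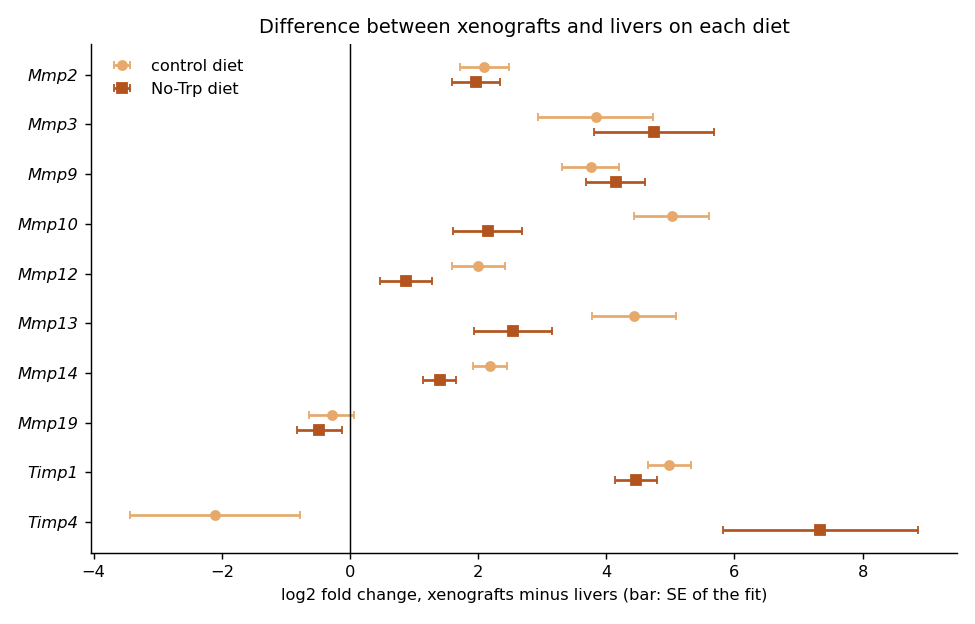
Log2 fold change of each gene between xenografts and livers (x axis, xenografts minus livers) on the control diet (light circles) and the No-Trp diet (dark squares); bars are the SE of the fit, n = 3 against 3. Mmp19 sits left of 0 on both diets, and Timp4 moves from −2.11 on the control diet to 7.34 without tryptophan.

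Per kilobase of exon the order of the 10 genes differed between the models. The length took in all exons of a gene in GENCODE M21, while the authors counted on their own mm10 annotation. Comparisons between genes therefore depend on the length used. In control livers Mmp19 (10.7 ± 3.01 CPM per kb, SD, n = 3) and Mmp14 (9.86 ± 0.943) led and overlapped, and stood apart from Mmp2 (5.73 ± 1.41) and Timp1 (5.60 ± 1.83). In No-Trp livers Mmp14 (15.5 ± 4.92) and Mmp19 (13.0 ± 0.614) again led and overlapped. In the xenografts Timp1 was highest of the 10 genes on both diets, at 177.8 ± 40.4 CPM per kb on the control diet and 127.5 ± 44.5 without tryptophan, and apart from the next gene of the 10. Timp2, which is not among the 10, was at 139.7 ± 18.9 CPM per kb in control xenografts and 143.7 ± 21.9 in No-Trp xenografts.

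The neighbours of Timp1 in that order were Mmp13 (76.3 ± 64.5 CPM per kb) and Mmp14 (44.8 ± 9.33) in control xenografts, which overlapped, and Mmp14 (41.0 ± 9.21), Mmp3 (33.9 ± 8.87), Mmp2 (30.3 ± 11.4) and Mmp13 (21.6 ± 14.0) in No-Trp xenografts, each overlapping with the next. Mmp10 was at 18.5 ± 7.73 CPM per kb in control xenografts, near the middle of the order, and at 2.75 ± 0.989 in No-Trp xenografts, above Timp4 alone. On this scale Timp4 was lowest of the 10 in all 4 groups, and even in No-Trp xenografts it was at 0.752 ± 0.309 CPM per kb, below the 127.5 of Timp1. In CPM it overlapped there with Mmp10, at 2.37 to 5.81 against 3.001 to 6.40. The order of these 2 genes thus rests on the exon lengths used, 5894 bases for Timp4 and 1722 for Mmp10.

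**Figure D5:**
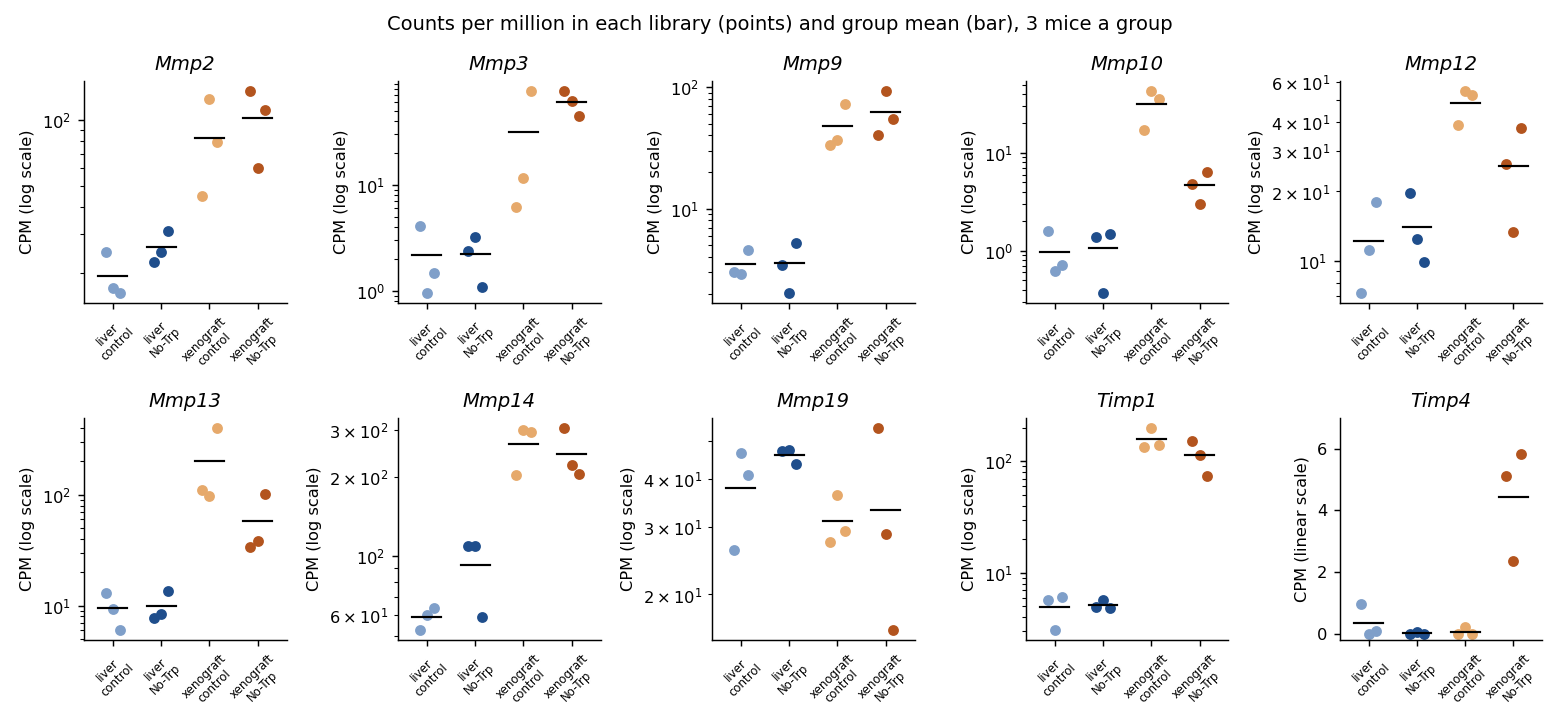
CPM of each of the 10 genes in every library (points) by group, with the mean of 3 mice as a bar; the y axis is logarithmic except for Timp4, which is linear because of libraries at 0. Mmp10 at 3.001 to 6.40 CPM in No-Trp xenografts sits between the livers and the control xenografts, and Mmp19 lies between 16.2 and 54.3 CPM in every library.

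The genes with the most similar pattern to each member, by Pearson correlation of log2 CPM centred within each model over the 12 libraries, were A330009N23Rik for Mmp2 (r = 0.976), Hoxb9 for Mmp3 (0.942), Tmem209 for Mmp9 (0.836), Lor for Mmp10 (0.959), Cpne8 for Mmp12 (0.927), Tspyl5 for Mmp13 (0.93), Atn1 for Mmp14 (0.944), Ctgf for Mmp19 (0.922), Tnip3 for Timp1 (0.924) and B3galt2 for Timp4 (0.995). Next in order came Slc22a17 (0.929) and Thbs2 (0.916) for Mmp2, Arhgef25 (0.924) and Smoc2 (0.921) for Mmp10, Tgfbr1 (0.936) and Herc3 (0.922) for Mmp14, and Oxtr (0.954) and Muc15 (0.951) for Timp4. The points share libraries, diets and depth, and no member was among the 3 most similar genes of another. Each value is the highest, or among the 3 highest, over all tested genes with 12 libraries. Such a search finds high values by itself, so nothing is read from their size.

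The other family members and inhibitors, which were not part of the list, were tested. In the livers 9.28% of all genes tested were called higher and 7.27% lower. Of 15 other Mmp genes 9 were tested in the livers, and Mmp28, epilysin, rose without tryptophan, from 0.482, 0.507 and 0.559 CPM in control livers to 1.89, 2.58 and 2.72 CPM (log2 fold change 2.21 ± 0.36, adjusted p = 0.0171). It was higher in all 3 No-Trp livers than in any control, but near the lower end of detection. Control livers 101, 102 and 103 held 10, 9 and 14 reads of Mmp28, and No-Trp livers 105, 107 and 108 held 33, 42 and 35. In the xenografts it was at 6.81, 7.02 and 6.03 CPM and at 16.1, 14.0 and 9.16 CPM, again with no overlap, but did not pass the test (0.97 ± 0.27, adjusted p = 0.146). Mmp20, the tooth enamel protease, had 0 reads in all 12 libraries.

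Of 9 other inhibitors, 2 were called lower in the No-Trp livers and 0 higher, where 7.27% of all genes were called lower and 9.28% higher. The estimates of 6 of the 9 were above 0 and those of 3 below, with a median of 0.585. A2m, the plasma protease trap alpha-2-macroglobulin, went from 49.4, 273.5 and 116.4 CPM in control livers to 15.5, 7.01 and 4.74 CPM without tryptophan (−3.98 ± 0.74, adjusted p = 0.0202). Reck, a membrane-anchored inhibitor of Mmp2, Mmp9 and Mmp14, went from 19.5, 15.4 and 17.2 CPM to 10.2, 4.24 and 6.84 CPM (−1.28 ± 0.33, adjusted p = 0.0338). In both genes every No-Trp liver lay below every control. Pzp, more abundant than A2m, had means of 622.9 CPM in control and 2249 CPM in No-Trp livers. Its groups overlapped and it was not called (1.88 ± 0.97, edgeR adjusted p = 0.188). Timp2, the inhibitor that also takes part in the activation of Mmp2, had means of 30.8 and 45.6 CPM and missed the threshold (0.58 ± 0.19, adjusted p = 0.056). In the xenografts 0 of the 8 other Mmp genes and 0 of the 8 inhibitors tested were called, 1 and 0 had an unadjusted p under 0.05, and DESeq2 called 0 of both. The 3 liver calls depended on the libraries: without control 103 none was left, and 6 were called without control 102.

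Among enzymes that process these proteases, 3 of 12 activators and plasmin genes rose in the No-Trp livers and 0 fell, namely Hpn, the hepatocyte surface protease hepsin (1.82 ± 0.38, adjusted p = 0.0233), Pcsk5 (1.31 ± 0.36, adjusted p = 0.0384) and Furin, which removes propeptides (1.04 ± 0.24, adjusted p = 0.0277). Of 21 tested ADAM and ADAMTS proteases, 2 rose, Adam23 (2.23 ± 0.27, adjusted p = 0.0129) and Adamts13, the protease of von Willebrand factor (1.51 ± 0.36, adjusted p = 0.028), and 1 fell, Adamts12 (−1.52 ± 0.45, adjusted p = 0.0457). The hepatocyte marker sum given above rose with these groups, and its part in them was not tested. Over all genes tested in the livers 9.28% were called higher and 7.27% lower, so nothing is read from the counts of these lists.

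Of 14 matrix substrates, 2 basement membrane genes fell in the No-Trp livers, Lamc1 (−1.15 ± 0.23, adjusted p = 0.022) and Col4a1 (−1.05 ± 0.22, adjusted p = 0.0224), while the small proteoglycan gene Dcn rose (1.91 ± 0.29, adjusted p = 0.0163). Of 12 cytokines and receptors that induce metalloproteinases, Il1r1, the interleukin 1 receptor (1.66 ± 0.39, adjusted p = 0.028), and Il6st, the shared receptor chain of the interleukin 6 family (1.18 ± 0.31, adjusted p = 0.0361), rose and Tgfb2 fell (−1.49 ± 0.31, adjusted p = 0.0231). Of 15 tested genes of the AP-1 and ETS list, which also holds Runx2 of neither family, 0 were called, with 1 at an unadjusted p under 0.05 and 0 by DESeq2. Of these pathway genes, Adam23 remained called in 5 of the 6 fits that left out a liver, Dcn in 4, and the others in 0 to 3. Without control liver 103 none of them was called, and 8 of all genes were. The counts of these lists, too, stand beside 9.28% of all genes called higher and 7.27% lower.

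In the xenografts none of these lists had a gene called by edgeR. At an unadjusted p under 0.05 there were 6 of 23 ADAM and ADAMTS genes, 2 of 12 activators and 6 of 14 substrates. So were 5 of 16 genes of the AP-1 and ETS list, Runx2 included, and 3 of 13 cytokines and receptors. DESeq2 called 1, 1, 2, 0 and 0 genes of these lists in that order. The AP-1 and ETS list had a median log2 fold change of −0.39, against −0.004 over all genes, with 11 estimates below 0 and 5 above. Groups did not overlap for 5 of its 16 genes, against 22.5% of all genes, and of these Fosl1 was higher without tryptophan. The ADAM and ADAMTS list had a median of 0.60, with 17 of 23 estimates above 0.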

How the data were processed

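Polyadenylated RNA of 12 mice was sequenced, 1 library per mouse. The deposited values are raw read counts per gene symbol, which the authors made with HTSeq from reads trimmed by Trim Galore and aligned to mm10 with STAR 2.7.2b. They sorted alignments with SAMtools 1.9, checked library quality with Bowtie2 2.3.4.3, used BWA 0.7.17 for separate read counts on RNA sequences, and normalized and tested with DESeq2. The strand setting and the rule for overlapping genes are not given in the sources used here. Reads not counted on genes (24.7% to 39.4% of a library) were left out. No 2 replicate libraries were alike within sampling noise (chi-square per degree of freedom 36.8 to 291 over 12 pairs), and whether the mice shared cages or runs is not known.

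Counts were compared with edgeR 4.0.16 in R 4.3.3 (TMM, filterByExpr, robust quasi-likelihood F test, two-sided, Benjamini-Hochberg adjustment over all genes tested), the diets within the 6 libraries of each model, the rest in a 4-group fit over 12 libraries. The spread between mice was 31.6% in livers and 28.7% in xenografts, larger than counting error except for genes with few reads such as Timp4. Alternatives were DESeq2 1.42.0, RLE factors, library totals, Rn45s left out, no filter, at least 10 counts in every library, the resubmission mark as covariate, no threshold on fold change, other sets of libraries in the fit and leaving out each library. No paired analysis was possible because the groups share no animal numbers. The fits were tested on simulated counts.

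The members, the pathway and marker lists and the tests were chosen with earlier results of these data known. Named besides the members are genes of the pathway lists called in a diet comparison (at most 4 per direction), the most similar genes by correlation, marker genes and label checks. Timp2, Mmp20, Mmp1a, Mmp1b, Syn1, Syn2, Tmem198b, Krt10, Fosl1, Hnf4a, Trf, Cps1, Pzp and Runx2 were named after their values were seen. Of the markers Ly6g was not matched. Gene positions and exon lengths are from GENCODE M21 (GRCm38), promoter sequences from RefSeq (GRCm38.p6).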

Additional observations from a re-analysis of the deposited data

Results flagged for a closer look

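The edgeR interaction term, the diet difference in xenografts minus that in livers, was −2.87 for Mmp10 and 9.45 for Timp4. Both values are descriptions, since the list of 10 was chosen with them known. Timp4 passed the filter on low counts only through the No-Trp xenografts and had 20 of its 23 liver reads in liver 101, and Mmp10 was called in 5 of the 12 fits that left out a library. The same term was tested for other genes, and 6.70% of all 15472 genes were called higher and 6.01% lower. Genes of the other pathway lists that were called are not described here. Among 9 other Mmp genes and 9 other inhibitors tested, the diet difference differed between the models for 3 by the test of this term. For Mmp11, stromelysin 3, it was −2.56 ± 0.79 (adjusted p = 0.0476), with 1.30 ± 0.756 and 3.11 ± 0.602 CPM (SD, n = 3) in control and No-Trp livers and 21.8 ± 18.9 and 8.80 ± 1.901 CPM in control and No-Trp xenografts. The control xenografts 40, 41 and 43 were at 11.2, 10.5 and 43.6 CPM, and without xenograft 43 the term was −1.57 ± 0.58 and not called (adjusted p = 0.106). Mmp11 was called in 3 of the 12 fits that left out a library. For A2m it was 3.99 ± 0.91 (adjusted p = 0.0183) and for Reck 2.04 ± 0.58 (adjusted p = 0.0349), both of which fell in the No-Trp livers, while their estimates in the xenografts were −0.003 ± 0.504 and 0.74 ± 0.48. Leaving out each library, A2m remained called in 11 of 12 fits, all but the one without No-Trp liver 107 (adjusted p = 0.0516), and Reck in 4 of 12. Mmp27 moved apart in opposite directions, lower in every No-Trp liver (means 1.98 and 0.939 CPM) and higher in every No-Trp xenograft (0.257 and 0.699 CPM), and its interaction of 2.47 ± 0.89 was not called (adjusted p = 0.0781), except without control xenograft 41 (3.35, adjusted p = 0.0446).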

How the results depend on the processing

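Of the xenograft diet calls, 2 for the 10 genes, 0 were left with at least 10 counts in every library (where Timp4 was no longer tested), 0 with the resubmission mark as covariate and 0 in a single fit over all 12 libraries. Leaving out a library gave 0 to 1, the 1 being Mmp10 without control 40. The other alternatives gave 2. For the interaction the count of 2 became 0 with at least 10 counts in every library, where neither gene was tested, and 1 to 2 leaving out a library. Timp4 was lost without liver 101, and Mmp10 without control liver 103, No-Trp livers 105 or 108, control xenografts 41 or 43 or No-Trp xenografts 35 or 36. The calls for other Mmp genes and inhibitors in the livers, 3, ran from 0 (without control 103) to 6 (without control 102), with 1 without control 101, No-Trp 105 or No-Trp 107. Calls between xenografts and livers stayed at 7 to 8 of 10 on the control diet and 6 to 9 without tryptophan, and those of the 10 genes in the livers at 0.

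No alternative reversed a called value. The estimates of Mmp3 and Mmp13 in the xenografts depended on control 43 (2.76 and −0.86 without it), and the resubmission covariate moved Mmp3 to 3.31, Mmp13 to −0.95 and Mmp2 to 1.19. Over all genes the xenograft diet calls, 53, were 380 with DESeq2, 118 without a filter, 15 with at least 10 counts in every library, 4 with the covariate and 9 to 78 leaving out a library, and the liver calls, 2337, were 8 to 3207 leaving out a library. The cause was not tested. The SE of the 10 log2 fold changes, 0.21 to 0.92 in the xenografts, sets what 3 mice a group could show.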

Other observations

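Stellate and endothelial cells are known sources of metalloproteinases in liver. In the No-Trp livers the called stellate cell and fibroblast markers went in both directions, while the called endothelial markers rose. The 8 endothelial markers summed to 103.9 to 198.3 CPM in control livers and to 216.7 to 352.9 CPM in No-Trp livers, with 6 estimates above 0 and 2 below. Over all genes tested in the livers 9.28% were called higher and 7.27% lower. Of 10 stellate cell and fibroblast markers 2 rose, Pdgfra, a growth factor receptor (log2 fold change 1.27 ± 0.23, adjusted p = 0.0196), and Reln, the secreted glycoprotein reelin of quiescent stellate cells (2.10 ± 0.59, adjusted p = 0.0423), and 1 fell, Acta2, the actin of activated stellate cells and smooth muscle (−1.68 ± 0.26, adjusted p = 0.0163). Of 8 endothelial markers 2 rose, Clec4g, a lectin of sinusoidal cells (1.97 ± 0.44, adjusted p = 0.0262), and Tek, the angiopoietin receptor (1.19 ± 0.34, adjusted p = 0.0434). The groups did not overlap for any of these 5 genes, which were named after their values were seen. Leaving out each liver in turn, Acta2 remained called in 4 of 6 fits, Pdgfra in 3, Reln and Clec4g in 2 and Tek in 1. In the xenografts 0 of the 9 stellate and 0 of the 8 endothelial markers tested were called by edgeR, with 0 and 1 at an unadjusted p under 0.05, and DESeq2 called 0 and 1.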
